A study of Homo sapiens with 12 samples.

Results

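The genes described here carry a symbol made of ZNF and a number, with or without a trailing letter, and code for proteins. They were taken from the authors' deposited table of comparisons by matching its gene identifiers to RefSeq (GRCh38.p14), and 205 of the 5759 listed genes met the rule. A further 6 listed genes with such a symbol are not protein-coding and were left out. RefSeq holds 509 protein-coding genes with such a symbol, so 40.3% of them are listed, beside 26.3% of its 20056 protein-coding genes. A gene is listed only because it passed a threshold in at least 1 comparison, so every share below is over a selected set.

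MOLT4 is a human T lymphoblast line from an acute leukaemia, and the labels give its genotype as wild type. RNA was sequenced from 12 samples in 4 groups of 3: DMSO, the solvent control, for 6 h, compound 955 (0.1 µM) for 1 h, the same dose of 955 for 6 h, and SNS-032, used at 1 µM, for 6 h. SNS-032 inhibits cyclin-dependent kinases, among them CDK9, which releases RNA polymerase II into elongation, and 955 is a code-named compound of a study of piperlongumine conjugates and protein degradation. No separate control at 1 h is among the samples, so treatment and time cannot be told apart in the 1 h comparison.

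The C2H2 zinc finger is a small fold in which a pair of cysteines and a pair of histidines hold a zinc ion, and strings of such fingers read DNA base by base. Many ZNF-named proteins also carry a KRAB domain near their start, which recruits the co-repressor TRIM28 and, through it, the histone methyltransferase SETDB1, and many of these repressors silence transposable elements. Their genes multiplied by tandem duplication and lie largely in clusters on chromosome 19. Their transcripts are as a rule low in abundance, and many zinc finger transcripts are known to be short-lived.

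The fingers and domains were counted on the proteins translated from GENCODE 29 (GRCh38). The 205 genes code for 2253 fingers by the motif C-x(2 to 4)-C-x(12)-H-x(3 to 5)-H, with a median of 11 and a range of 0 to 31, and ZNF862 is the gene with none. A KRAB domain was found in 138 of the proteins and a SCAN domain, which pairs such proteins with each other, in 8. Chromosome 19 holds 105 of the 205 genes, chromosome 7 holds 18 and chromosome 16 holds 15.

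The sequence that makes these genes a family is the run of fingers and the short linker between them. Among the members, 164 code for at least 1 copy of the linker T-G-E-K-P, 909 copies in all, in 138 different spellings. The commonest spelling makes up 15.4% of the copies (140 copies in 53 genes) and the next 12.8% (116 copies in 40 genes). They are shown because reads from such stretches are the ones that paralogs can share.
Linker spelling 1: ACTGGAGAGAAACCC
Linker spelling 2: ACTGGAGAGAAACCT

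ZNF799 and ZNF443 are near-copies, both lower at 1 h, and are shown because reads from such stretches may be hard to assign (their values follow in the account of the time course). A stretch of 84 bases covering 1 finger and its linker is printed for both, each on the minus strand of chromosome 19 in GRCh38, with the bases that differ in capitals. This pair of stretches differs at 3 positions, the median over the 14 fingers of ZNF799 compared with their closest stretch in ZNF443, and the range is 0 to 9.
ZNF799, chr19:12391300-12391383: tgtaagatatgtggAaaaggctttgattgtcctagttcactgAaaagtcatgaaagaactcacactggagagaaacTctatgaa
ZNF443, chr19:12430990-12431073: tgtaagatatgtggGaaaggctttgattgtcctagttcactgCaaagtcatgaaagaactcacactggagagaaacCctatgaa

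Promoters of 179 of the 205 genes matched the RefSeq table (GRCh38.p14, 250 bases before to 50 after the most upstream start). The core letters of an ETS-family site, CCGGAAG on either strand, stood in 39.1% of these windows, as in 39.1% of the 430 ZNF-named genes with a window, in 20.9% of the 4326 listed protein-coding genes with a window and in 14.2% of all 15843. TATAAA stood in 3.35% of the members' windows, in 6.33% of the listed and in 9.75% of all protein-coding ones. Windows of ZNF224, ZNF225 and ZNF230, neighbours on chromosome 19, repeat the 9 letters TTCTGGGAA, a word picked after these windows were read. It stood in 10.1% of the members' windows, which include those it was picked from. The share was 6.98% over the 430 ZNF-named genes and 4.78% over the 251 of them not listed. It was 1.39% over the listed protein-coding genes and 1.07% over all. These matches are letters in a window, not measured binding. The windows are printed for ZNF430, a KRAB gene among the largest falls at 1 h, and for the 3 neighbours, which went different ways. All lie on the plus strand, and capitals mark CCGGAAG and TTCTGGGAA on either strand.
ZNF430, chr19:21020407-21020706: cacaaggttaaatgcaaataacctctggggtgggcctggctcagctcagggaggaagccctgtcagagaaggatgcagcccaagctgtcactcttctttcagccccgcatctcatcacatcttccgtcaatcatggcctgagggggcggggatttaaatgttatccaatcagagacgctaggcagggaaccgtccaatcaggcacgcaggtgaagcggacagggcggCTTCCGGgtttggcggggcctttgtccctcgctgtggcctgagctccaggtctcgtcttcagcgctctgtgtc
ZNF230, chr19:44002707-44003006: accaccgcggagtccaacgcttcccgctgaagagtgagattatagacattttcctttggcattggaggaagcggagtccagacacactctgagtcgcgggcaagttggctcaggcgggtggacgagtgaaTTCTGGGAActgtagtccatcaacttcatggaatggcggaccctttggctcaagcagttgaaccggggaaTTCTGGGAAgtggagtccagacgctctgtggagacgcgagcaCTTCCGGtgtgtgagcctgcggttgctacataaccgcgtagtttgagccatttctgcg
ZNF225, chr19:44113149-44113448: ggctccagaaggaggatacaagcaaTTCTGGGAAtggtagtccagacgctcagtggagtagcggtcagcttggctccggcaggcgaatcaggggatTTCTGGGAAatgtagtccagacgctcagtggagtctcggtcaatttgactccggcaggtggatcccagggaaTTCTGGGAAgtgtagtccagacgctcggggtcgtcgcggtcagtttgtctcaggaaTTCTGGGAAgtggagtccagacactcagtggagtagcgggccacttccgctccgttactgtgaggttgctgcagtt
ZNF224, chr19:44094111-44094410: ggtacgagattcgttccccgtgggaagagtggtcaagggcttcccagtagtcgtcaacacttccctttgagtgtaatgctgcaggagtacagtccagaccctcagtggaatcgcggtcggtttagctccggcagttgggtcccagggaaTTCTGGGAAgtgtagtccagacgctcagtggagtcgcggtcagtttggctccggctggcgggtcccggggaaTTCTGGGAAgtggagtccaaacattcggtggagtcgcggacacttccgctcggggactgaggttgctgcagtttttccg

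Levels and fold changes were read from the authors' deposited table, and values per sample were not used here. The level of a gene is its average log2 CPM (CPM being counts relative to the library's total) over all samples, not divided by gene length. The members' levels ran from 0.087 to 7.97 with a median of 3.30, against 4.15 for all listed genes. ZNF207, which carries BUB3 to kinetochores, had the highest (7.97), followed by ZNF395 (7.34), ZNF217 (6.58), ZNF292 (6.16) and ZNF692 (6.14) in the authors' deposited table. At the other end stood ZNF165 (0.087), ZNF485 (0.11), ZNF516 (0.15), ZNF19 (0.23) and ZNF879 (0.43), all below a log CPM of 1 in that table. A gene was past the threshold when the authors' false discovery rate (FDR) was under 0.05 and the absolute log2 fold change at least 1. A standard error (SE) in the text was recovered from the deposited F statistic. In bulk RNA, fewer cells and less RNA per cell cannot be told apart. Of 17 T lymphoblast markers, 6 are listed with levels of 4.75 to 8.06, and of 17 markers of other cell types 3 are listed at 1.38 to 3.94. An unlisted marker says nothing about its level.

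**Figure D1:**
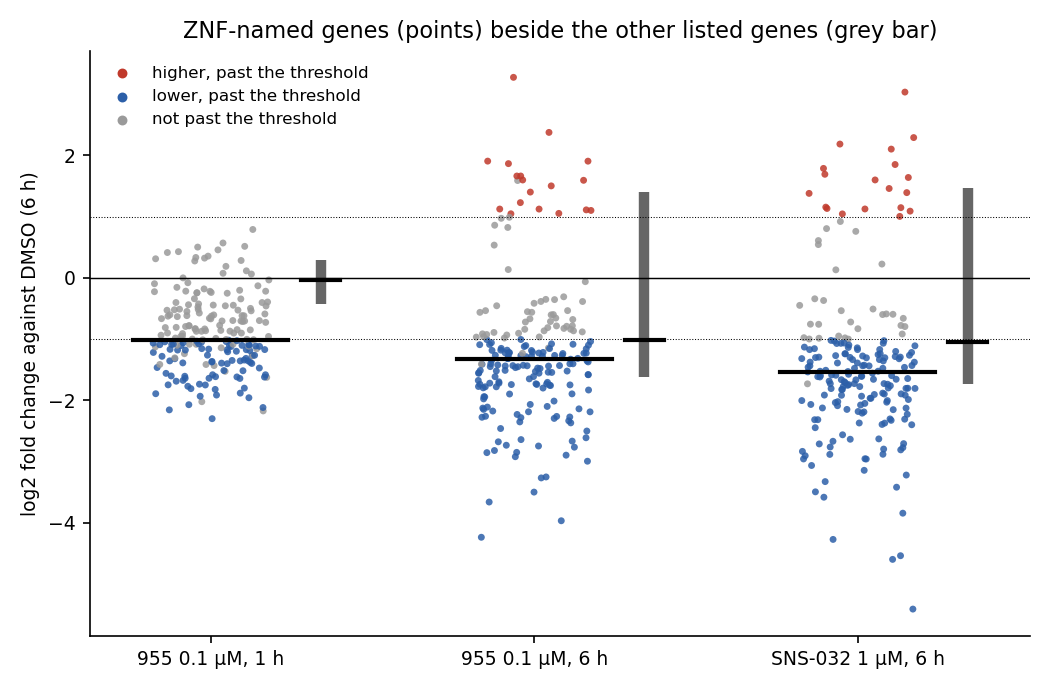
Log2 fold change against DMSO (vertical axis) of each of the 205 ZNF-named genes (points, red higher, blue lower, grey not past the threshold) in the 3 comparisons, with the members' median as a black line. The grey bar spans the lower to the upper quartile of the 5554 other listed genes, with their median. At 1 h the members' median is -1.01 and that of the other genes -0.03.

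After 1 h of 955, ZNF-named genes were lower or did not pass the threshold. Past the threshold, 83 of 205 (40.5%) were lower in the authors' deposited table, where 7.71% of all listed genes were. None was higher, where 0.729% of all listed genes were. Of the 5270 listed protein-coding genes 8.27% were lower and 0.342% higher, so the absence of higher members is near that share. At an unadjusted p under 0.05 the authors' test gives 147 members below the control and 7 above, a count not made over all listed genes. The members' median log2 fold change was -1.01, a 2.01-fold lower level, and 188 of 205 had a negative value, while the median of all listed genes was -0.05. They made up 18.7% of all listed genes that fell at 1 h and 3.56% of all listed genes.

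Among the better expressed members (level at or above the members' median), the largest falls were those of ZNF764 (-1.93, SE 0.245, FDR 2.9e-05), ZNF430 (-1.81, SE 0.243, FDR 5.6e-05) and ZNF526 (-1.74, SE 0.253, FDR 0.00013) in the authors' deposited table. ZNF776 fell by 1.69 and ZNF281, a transcription factor known from stem cell self-renewal, by 1.64 on the log2 scale in that table. The falls were not confined to scarce transcripts: 40 of the 103 members at or above the median level fell, and 43 of the 102 below it. ZNF217, an oncogene product found in CoREST co-repressor complexes and the third most abundant member, fell by 1.36 (SE 0.164, FDR 2.5e-05) in the authors' deposited table. ZNF93, which binds LINE-1 elements, fell by 1.21 (FDR 0.00011), and ZNF830, a protein linked to splicing and DNA repair, by 1.58 (FDR 0.00035).

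Not every well-known member was past the threshold at 1 h. ZNF207 stood at 0.07 (FDR 1), ZNF395 at -0.10 (FDR 1) and ZNF692 at 0.33 (FDR 0.40) in the authors' deposited table. ZNF143, an activator of snRNA and mRNA promoters, stood at -0.67 (FDR 0.054) and ZNF10, whose KRAB domain is the standard repressor of CRISPR interference, at -0.62 (FDR 0.18). Just inside the threshold lay ZNF304 (-1.02) and ZNF671 (-1.03), and just outside it ZNF142 (-0.999) and ZNF408 (-0.99) in that table.

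By 6 h of 955 the genes had parted into many that were lower and a few that were higher. Past the threshold, 138 of 205 (67.3%) were lower in the authors' deposited table, beside 50.1% of all listed genes, and 18 (8.78%) were higher, beside 35.2%. Their median was -1.32, and that of all listed genes -1.03. The direction of the higher genes rests on the authors' scaling, in which RNA content is divided out. The 13 mRNAs encoded in the mitochondrial genome rose by a median of 2.07. Scaled on them, 16 of the 18 lie below the control, all but ZNF467 and ZNF460, which are not past the threshold there. On that scale 0 members are higher past the threshold and 188 (91.7%) are lower, beside 66.4% of all listed genes. Centred on the median of all listed genes, the members' median is -0.29, with 39 lower (19.02%, beside 14.3% of all listed genes) and 25 higher. At 1 h the mitochondrial mRNAs stood 0.67 higher, and 171 members (83.4%) are lower on their scale, beside 30.7% of all listed genes.

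**Figure D2:**
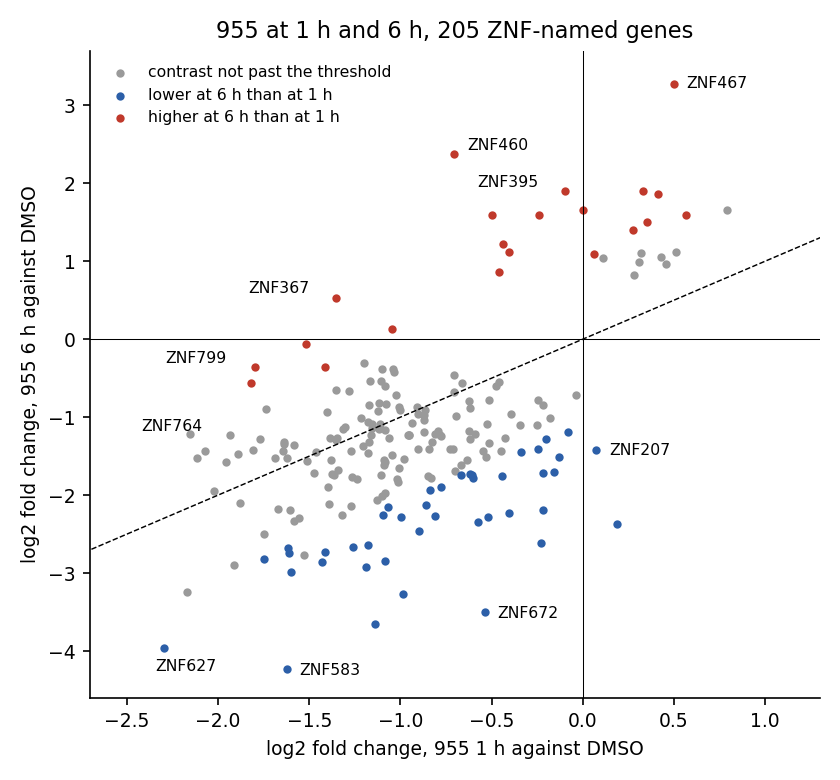
Log2 fold change of the 205 ZNF-named genes after 1 h (horizontal) and 6 h (vertical) of 955, both against the same DMSO samples, with the line of equal values dashed. Blue marks the 42 genes lower and red the 21 genes higher at 6 h than at 1 h in the approximate contrast, and grey the rest.

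The largest falls at 6 h were in ZNF583 (-4.23), ZNF627 (-3.96) and ZNF837 (-3.66), at levels of 1.85, 2.31 and 2.22, in the authors' deposited table. Among better expressed members they were in ZNF672 (-3.50, SE 0.192, FDR 1.5e-12), ZNF614 (-2.92), ZNF48 (-2.68), ZNF480 (-2.64) and ZNF561 (-2.33) in that table. ZNF143 fell by 1.74 (SE 0.203, FDR 2.1e-07), and ZNF274, which brings SETDB1 to the ends of zinc finger genes, by 2.07 (FDR 0.00057). ZNF207 fell by 1.43 (SE 0.150, FDR 6.8e-08), and the ribosome assembly factors ZNF593 and ZNF622 by 2.19 and 1.76, in the authors' deposited table. ZNF521, a regulator of blood progenitors with 27 fingers, fell by 1.08 (FDR 0.0023).

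Of the genes that rose, ZNF467, known from bone and fat cell differentiation, had the largest value (3.27, SE 0.604, FDR 0.0020) in the authors' deposited table. ZNF460 followed at 2.37, with a level of 1.54. ZNF395, a factor induced by hypoxia, rose by 1.90 (SE 0.185, FDR 2.3e-07) and ZNF692, which represses gluconeogenic genes, by 1.90 (SE 0.164, FDR 1.7e-09) in that table. ZNF121 (1.86), ZNF224 (1.66), a KRAB repressor first described at the aldolase A promoter, ZNF292 (1.59), ZNF83 (1.50) and ZNF337 (1.40) also rose. Of the 18 genes, 12 had a positive and 6 a negative value at 1 h, from -0.70 to 0.79, and none was past the threshold then. KRAB is present in 9 of the 18.

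ZNF672 and ZNF692 are neighbours at the end of chromosome 1 and went opposite ways. In GENCODE 29 ZNF672 lies at chr1:248838210-248849517 on the plus strand and ZNF692 at chr1:248850006-248859144 on the minus strand, so their ends face each other across 488 bases. At 6 h of 955 ZNF672 stood at -3.50 and ZNF692 at 1.90 in the authors' deposited table. Under SNS-032 their values there were -3.42 and 2.18. Whether the counting used strand is not given in the sources used here. Without it, reads past the end of either gene, or from overlapping genes of the other strand, cannot be told apart from its own. Of the 205 members, 109 overlap a GENCODE gene on the other strand, 33 of them a protein-coding one.

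To follow the time course, 955 at 6 h was set against 955 at 1 h in an approximate contrast, the difference of the 2 deposited log2 fold changes tested with the recovered SE and Benjamini-Hochberg adjustment over all 5759 genes. In it 42 members were lower at 6 h than at 1 h, 20.5% where 35.6% of all listed genes were, and 21 were higher, 10.2% where 27.0% were. Of the 138 members lower at 6 h, 64 (46.4%) had been past the threshold at 1 h, beside 331 of the 2885 listed genes lower at 6 h (11.5%). Of the 83 that were lower at 1 h, 64 were lower at 6 h, 19 were past the threshold in neither direction and 0 were higher. That is 77.1% lower at both times, close to the 74.5% of all listed genes (331 of 444, with 111 in neither direction and 2 higher). The members' median was -1.36 at 1 h and -1.45 at 6 h, and that of all 444 genes -1.32 and -1.58. Through the 1 h comparison alone 15 members are listed, beside 87 of all listed genes.

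Some members lower at 1 h stood higher at 6 h than at 1 h. This held past the threshold for 5 of the 83: ZNF367, ZNF555, ZNF799, ZNF543 and ZNF827. Among all listed genes lower at 1 h it held for 40 of 444. ZNF367 went from -1.35 (SE 0.134) at 1 h to 0.53 (SE 0.131) at 6 h in the authors' deposited table, a difference of 1.89 (adjusted p = 2.3e-11, recovered test with Benjamini-Hochberg adjustment). ZNF799 went from -1.80 to -0.36, a difference of 1.44 (adjusted p = 0.0011). Its near-copy ZNF443 went from -1.64 to -1.32 in the authors' deposited table, a difference of 0.32 (adjusted p = 0.26), and the test of the pair against each other was not made. Of the 50-base words of ZNF799 transcripts 47.7% also stand in other genes. ZNF443 is the gene that shares the largest number, so how reads were shared between the 2 is uncertain.

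Other members fell mainly after 1 h. The contrast was lowest in adjusted p for ZNF672 (-2.96), ZNF207 (-1.50), ZNF408 (-2.28), ZNF865 (-1.31), ZNF511 (-2.38) and ZNF277 (-1.75). None of these 6 carries KRAB, and none was past the threshold at 1 h in the authors' deposited table. ZNF511 shares 31.1% of its words with other genes, the largest number with the readthrough gene ZNF511-PRAP1. It also overlaps TUBGCP2 on the other strand, so its reads are uncertain. On the other side ZNF367 (1.89), ZNF692 (1.57), ZNF395 (2.0001), ZNF337 (1.12), ZNF224 (1.66) and ZNF83 (1.15) had the lowest adjusted p. The values of ZNF337 and ZNF83 turn negative when both times are scaled on the mitochondrial mRNAs.

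With SNS-032 at 6 h most members were again lower. Past the threshold, 156 of 205 (76.1%) were lower in the authors' deposited table, beside 52.5% of all listed genes, and 19 (9.27%) were higher, beside 37.8%. The median was -1.54, against -1.07 for all listed genes. Both compounds were compared with the same DMSO samples, and their doses differ by design (0.1 and 1 µM). Past the threshold with both were 127 lower and 14 higher members, with 955 alone 11 lower and 4 higher, with SNS-032 alone 29 lower and 5 higher, and with neither 15. Over all 5759 listed genes the same counts were 2581 lower and 1856 higher with both, 304 and 170 with 955 alone, 440 and 319 with SNS-032 alone, and 89 with neither. No listed gene, member or not, was called in opposite directions.

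The largest falls with SNS-032 among better expressed members were those of ZNF561 (-3.49), ZNF672 (-3.42), ZNF689 (-3.14), ZNF48 (-2.95) and ZNF614 (-2.77), by the authors' deposited table. Among members at or above the median level, rises were largest for ZNF467 (3.03), ZNF692 (2.18), ZNF395 (1.85), ZNF292 (1.78) and ZNF224 (1.69), and of these all but ZNF467 lie below the control on the mitochondrial scale. Below that level ZNF516 (2.29) and ZNF460 (2.10) also rose in the authors' deposited table. Of the 19 higher members only 1, ZNF467, keeps a positive value on the mitochondrial scale, so ZNF460 does not. No member is higher past the threshold on that scale. Just inside the threshold lay ZNF846 (1.00) and ZNF426 (-1.02), and just outside it ZNF443 (-0.9998) and ZNF649 (-0.998). For 955 at 6 h ZNF575 and ZNF426 (both -1.01) were just inside, and ZNF577 (0.99) and ZNF567 (-0.98) just outside.

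The approximate contrast of 955 with SNS-032 at 6 h, 1 pair of compounds at unmatched doses, called 4 members higher with 955, 1.95% where 0.851% of all listed genes were called. It called 0 lower, where 0.260% of all listed genes were called. At an unadjusted p under 0.05 it has 30 members higher and 1 lower, a count not made over all listed genes. The value was higher with 955 in 146 of the 205 members, beside 2864 of all 5759 listed genes. All 4 called members had fallen further with SNS-032. ZNF16, described in erythroid and megakaryocytic cells, stood in the authors' deposited table at -2.89 after 955 and -4.53 after SNS-032, a difference of 1.64 (95% interval 0.87 to 2.41, adjusted p = 0.018). ZNF230 stood at -1.12 and -2.76 in that table, a difference of 1.64 (0.75 to 2.53, adjusted p = 0.041). ZNF561 differed by 1.16 (0.56 to 1.76, adjusted p = 0.029) and ZNF394 by 1.08 (0.55 to 1.60, adjusted p = 0.021). None of the 4 is called when the SE ignores the shared control, so they rest on that choice. For 133 members the 95% interval of the difference lies between -1 and 1, and for the others, the 4 called among them, it reaches past 2-fold in at least 1 direction.

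**Figure D3:**
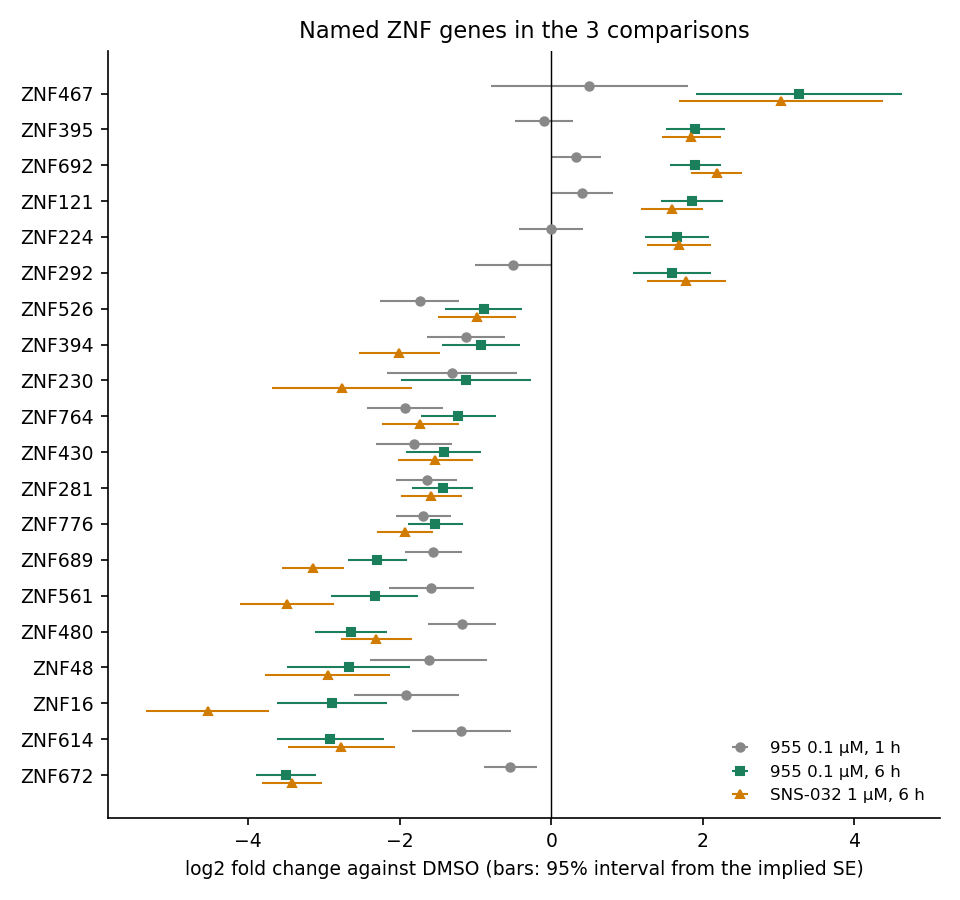
Log2 fold change against DMSO (horizontal axis) with its 95% interval from the recovered SE for 20 named ZNF genes in the 3 comparisons (grey circles 955 at 1 h, green squares 955 at 6 h, orange triangles SNS-032 at 6 h). The 6 genes at the top rose at 6 h, and ZNF16, ZNF230, ZNF561 and ZNF394 lie lower with SNS-032 than with 955.

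By protein class, the fall at 1 h covered 63 of 138 KRAB genes (45.7%, median -1.07) and 20 of 67 without KRAB (29.9%, median -0.73) in the authors' deposited table. At 6 h of 955 the counts were 89 lower and 9 higher with KRAB, and 49 lower and 9 higher without. Thus 56.2% of the KRAB genes lower at 6 h had been lower at 1 h, and 28.6% of those without KRAB. The difference between the classes was not tested. Of the 8 SCAN genes 3 were lower at 1 h, 5 at 6 h of 955 and all 8 with SNS-032. Of all listed genes 7.71%, 50.1% and 52.5% were lower in the same order.

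By finger number, 6 of 20 genes with up to 4 fingers were lower at 1 h, 25 of 63 with 5 to 9, 33 of 77 with 10 to 14 and 19 of 45 with 15 or more in the authors' deposited table, where 7.71% of all listed genes were. The median of the first class was -0.43 and those of the others ran from -1.06 to -1.02. At 6 h of 955 the median gene span was 23.4 kb in the 18 higher and 19.7 kb in the 138 lower members. Their median spliced length was 3.48 and 3.22 kb. Listed protein-coding genes, members included, had the same order, with a median span of 27.9 kb in the higher and 24.1 kb in the lower. Their median spliced length was 2.9955 and 2.851 kb. CCGGAAG stood in 43.7% of the windows of the 71 members lower at 1 h that have one and in 36.1% of the 108 others. Among listed protein-coding genes but members it stood in 21.4% of 294 lower at 1 h and in 20.1% of all 4147. At 6 h of 955 it stood in 44.4% of 124 lower and in 4 of 16 higher members. These shares were not tested.

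**Figure D4:**
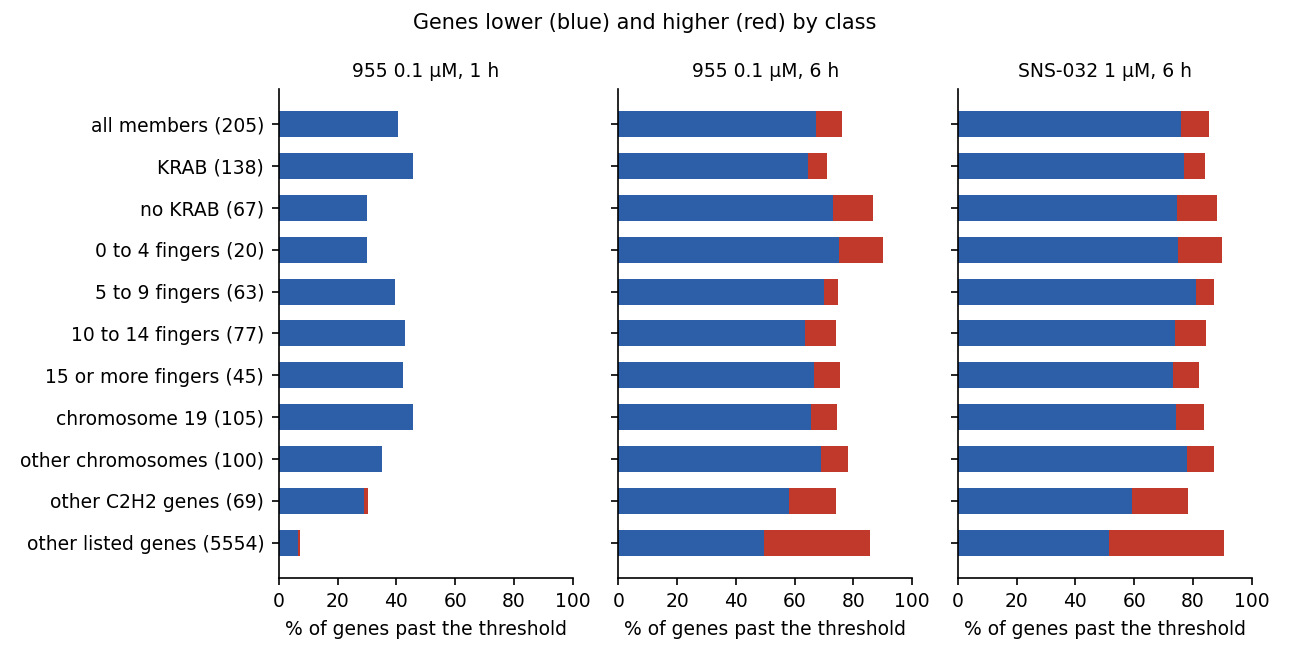
Percent of genes past the threshold (horizontal axis), lower in blue and higher in red, by class of ZNF-named gene in the 3 comparisons, with the number of genes in brackets. The bottom bars give 69 other listed C2H2 genes and the 5554 other listed genes, of which 6.50% were lower at 1 h.

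On chromosome 19, 48 of 105 members were lower at 1 h and 35 of the 100 elsewhere. The 338 other listed genes of chromosome 19 had 17 lower and 2 higher at 1 h in the authors' deposited table. At 6 h of 955 their median was 0.81, with 151 higher, while the members of the chromosome had a median of -1.28 and 9 higher. The share of the KRAB genes that was lower at 1 h was 43 of 86 on the chromosome and 20 of 52 off it.

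Within the chromosome, 10 clusters (ZNF-named genes with no more than 400 kb between starts, RefSeq) hold at least 4 members each. In the largest, chr19:57191500-58489533 with 43 ZNF-named genes, 22 are members, of which 11 were lower at 1 h and 14 lower and 2 higher at 6 h of 955. The cluster at chr19:51571283-53580269 holds 21 members, 13 lower at 1 h and 15 lower and 2 higher at 6 h. Of all listed genes 7.71% were lower at 1 h, and 50.1% were lower and 35.2% higher at 6 h of 955. The clusters were not tested against these shares. In 5 of the 10 clusters, members that rose lay among members that fell.

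The promoters printed for the ZNF224 cluster (chr19:43530835-44500522, 8 members) belong to such neighbours. In the authors' deposited table ZNF224 stood at -0.00 at 1 h, 1.66 at 6 h of 955 and 1.69 with SNS-032. ZNF225, whose window holds 4 copies of TTCTGGGAA against 2 in that of ZNF224, stood at -1.28 (FDR 0.042), -0.67 (FDR 0.21) and -0.60 (FDR 0.27). ZNF230, also with 2 copies and with CCGGAAG, stood at -1.31 (FDR 0.085), -1.12 and -2.76. So neighbours whose windows share this repeat differed, and only ZNF224 of the 8 members rose. In a further cluster ZNF121 (1.86) and ZNF846 (1.12) rose at 6 h of 955 beside ZNF561 (-2.33). ZNF460 (2.37) and ZNF548 (1.12) rose in the cluster where ZNF837 fell by 3.66, all in the authors' deposited table.

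**Figure D5:**
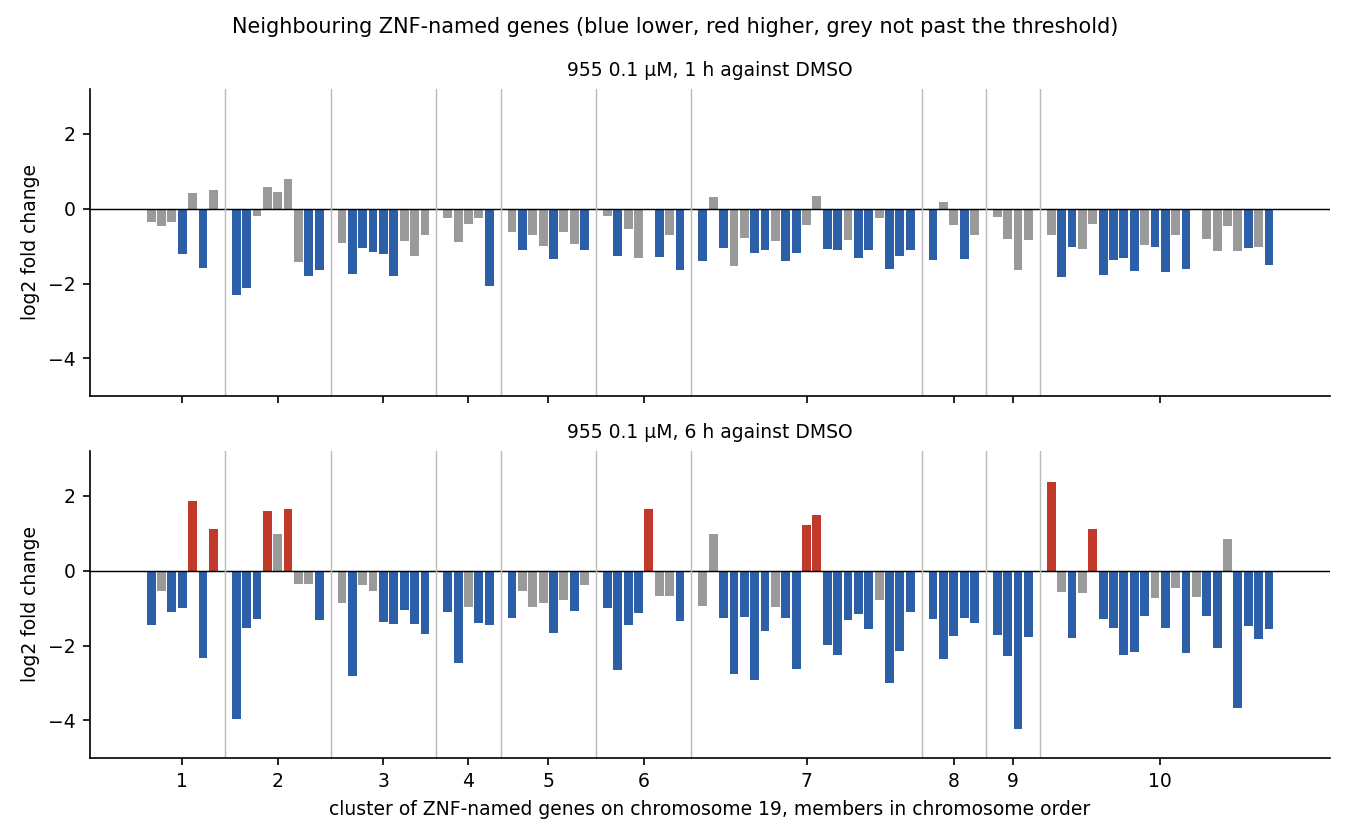
Log2 fold change against DMSO (vertical axis) after 1 h (top) and 6 h (bottom) of 955 for the members of 10 clusters on chromosome 19, in chromosome order and numbered along the chromosome. Blue bars are lower, red bars higher and grey bars not past the threshold, and red bars stand beside blue ones in clusters 1, 2, 6, 7 and 10 at 6 h.

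Sequence sharing could move reads between these genes. Over the 205 members the median share of 50-base transcript words also present in another gene was 0.43%, 90 had none and 16 had 20% or more. The highest shares were those of ZNF747 (89.6%), ZNF410 (85.5%) and ZNF658 (67.9%), which were called lower at 6 h of 955 and whose values are uncertain for that reason. ZNF395 shares 41.7%, and FBXO16 is the gene with the largest number of its words. Among the 144 members under 5% the counts were 56 lower at 1 h and 99 lower and 12 higher at 6 h of 955, with medians of -1.005 and -1.331, beside -1.01 and -1.32 for all members.

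The partners of KRAB were described from a list of 29 co-repressor genes, of which 15 are listed. In the authors' deposited table none of the 15 was past the threshold at 1 h (5 at an unadjusted p under 0.05, 2 at an FDR under 0.05), and their median was 0.01, where 7.71% of all listed genes were lower and 0.729% higher. After 6 h of 955, 11 were lower and 4 higher, where 50.1% and 35.2% of all listed genes were. TRIM28, the protein that KRAB binds, stood at 0.17 at 1 h and fell by 1.10 at 6 h in that table. The histone methyltransferase gene SUV39H1 fell by 1.79, TRIM24 by 2.59 and TASOR, a subunit of the HUSH silencing complex, by 1.43. The chromatin remodeller gene CHD3 rose by 2.57, ATF7IP2 by 1.28, ATRX by 1.18 and the deacetylase gene HDAC1 by 1.01. On the mitochondrial scale all 4 values but that of CHD3 are negative.

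C2H2 genes with other kinds of symbol also included many that were lower at 1 h. Of 69 such listed protein-coding genes with 3 or more fingers 20 were lower and 1 higher at 1 h, with a median of -0.77, and 40 were lower and 11 higher at 6 h of 955, in the authors' deposited table. By symbol, 3 of 10 ZFP genes, 3 of 7 ZSCAN genes, all 3 ZKSCAN genes and 2 of 11 ZBTB genes were lower at 1 h. So were 1 of 3 PRDM genes, 0 of 3 SP genes and 0 of 1 KLF gene, where 7.71% of all listed genes were. At 6 h of 955 the numbers lower were 6, 4, 1, 8, 1, 2 and 0 in the same order. The numbers higher were 0, 2, 0, 1, 1, 0 and 1. Of all listed genes 50.1% were lower and 35.2% higher then. The KLF gene has a level of 0.13. The difference between these genes and the ZNF-named ones was not tested.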

How the data were processed

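RNA sequencing of 12 samples was analysed through 1 table of the authors' own comparisons. Per the file headers, the authors deposited, for each gene and comparison with DMSO, a log2 fold change, an average log CPM, an F statistic, a p-value and an FDR, and a log base of 2 is assumed, since each listed gene reaches at least 1.001 in absolute value in some comparison, a bound of 2-fold on that base. As deposited, the F statistic is a score with no fixed range, and an SE was recovered as the absolute log2 fold change over its square root, with degrees of freedom solved from the F statistic and the p-value (most commonly 23.3, and under 10 for 2 members). The submitters' processing notes name hg38 and DESeq2 without a role, and an F statistic is not among the usual output of DESeq2. Aligner, counter and use of strand are not given in the sources used here. Depth per sample is unknown, so no interval or floor that needs it is given. Nothing says whether replicates came from separate cultures, so p-values may measure technical spread.

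Against DMSO the authors' deposited FDR was used as it stands, with no refit. Contrasts between treatments used the difference of log2 fold changes, the root mean square of both SEs, and Benjamini-Hochberg adjustment over all 5759 genes. They were run on simulated data in which each gene had the same spread in all groups. That run could not check the SE where the spread differs between groups. Members and lists were chosen with earlier results of these data known. The genes named are the 5 largest rises and falls per comparison at or above the members' median level, the 5 highest and lowest levels, up to 6 per direction of each contrast by adjusted p, those beside the threshold and those of described function. ZNF583, ZNF627, ZNF837, ZNF460, the genes lower at 1 h that stood higher at 6 h, ZNF443, and the genes of the cluster, promoter and sequence-sharing accounts were added after their values were seen. RefSeq symbols matched 5727 of 5759 identifiers. Proteins were translated from GENCODE 29 coding exons in place of the RefSeq proteins planned, and KRAB was scored with a 38-residue profile learned from 99 of the members' own proteins (lowest score called 16.6, highest not called -11.0). Shared sequence was counted in words of 50 bases. Versions were Python 3.11.15, pandas 2.3.3, numpy 2.4.6 and scipy 1.17.1.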

Additional observations from a re-analysis of the deposited data

Results flagged for a closer look

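Between the compounds at 6 h, the approximate contrast differed past the threshold for 4 members, all higher with 955 than with SNS-032: ZNF16 (1.64), ZNF230 (1.64), ZNF561 (1.16) and ZNF394 (1.08) on the log2 scale. The doses differ, and the part of dose in these values was not tested. Between the times of 955, 63 members differed past the threshold. Higher at 6 h than at 1 h with the lowest adjusted p were ZNF395 (2.0001), ZNF367 (1.89), ZNF224 (1.66), ZNF692 (1.57), ZNF83 (1.15) and ZNF337 (1.12). Lower at 6 h than at 1 h were ZNF672 (-2.96), ZNF511 (-2.38), ZNF408 (-2.28), ZNF277 (-1.75), ZNF207 (-1.50) and ZNF865 (-1.31).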

How the results depend on the processing

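Under an FDR under 0.01, no bound on the fold change, a level of at least 1, at least 1 finger, or (chosen after seeing the data) under 5% of shared words, the counts against DMSO stayed within 1.5 times the reported ones. With a log2 bound of 2 they were 4, 43 and 60 for 955 at 1 h, 955 at 6 h and SNS-032, and the same counts over all listed genes are not given here. Scaled on the mitochondrial mRNAs, 171 members (121 with KRAB) were past the threshold at 1 h and all were lower, as were all 188 and 193 at 6 h of 955 and SNS-032. Of all listed genes 30.7%, 66.4% and 72.1% were lower on that scale, in the same order. Centred on the median of all listed genes the counts at 6 h were 64 (25 higher, 39 lower) and 74 (26 higher, 48 lower). The contrast of the compounds called 0 members when the SE ignored the shared control, 3 with the larger SE, 9 without a bound and 14 on the mitochondrial scale, all higher with 955. The contrast of the times called 113 without a bound and 159 on the mitochondrial scale, of which 1 was higher at 6 h. Without a bound, 157 of all 5759 listed genes were called in the contrast of the compounds and 4876 in that of the times. The stricter finger motif left the count of genes with 10 or more fingers lower at 1 h at 52.

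On the mitochondrial scale the following values turned negative at 6 h of 955 and with SNS-032: ZNF395 (-0.17 and -0.50), ZNF692 (-0.17 and -0.16), ZNF121 (-0.21 and -0.75), ZNF224 (-0.41 and -0.66), ZNF292 (-0.48 and -0.56), ZNF337 (-0.67 and -0.89), ZNF83 (-0.57 and -0.97), ZNF367 (-1.54 and -1.80) and ZNF516 (-0.48 and -0.058). Of these, ZNF516 and ZNF367 were not past the threshold at 6 h of 955, nor ZNF367 with SNS-032, on the authors' scale. The value of ZNF460 turned negative with SNS-032 but not at 6 h of 955. In the contrast of times ZNF337 (-0.27) and ZNF83 (-0.25) turned as well. That scale subtracts 0.67, 2.07 and 2.35 from every log2 fold change, which is what turns them, and which scale fits these cells was not tested. No paired analysis was possible because the table holds comparisons and not values per sample, and no replicate could be left out for the same reason.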
